A study of Sus scrofa with 2 samples.

Results

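The miR-25 family is the group of miRNAs that share the seed ATTGCAC, and in pig testis it was represented by miR-25, miR-92a, miR-92b, miR-363 and miR-32. Its members were found by name: every sequence tag listed under one of these names, or under miR-92 without a letter, was taken whatever the species of the named entry, and reads were summed per name and arm of the hairpin. This gave 10 names and arms of 1384 in the whole series, made of 5 main arms and the arms opposite them, which the lists mark with a star. Of the 10, 8 had at least 20 reads over both libraries. The family held 409 distinct tags in the 180-day library and 1957 in the 30-day library.

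The tissue was whole testis, taken from Junmu-1 boars (a white Chinese breed of pig) aged 180 days, which were sexually mature, or 30 days, which were immature. Each age is represented by a single small RNA library built from the combined RNA of 3 boars, so there was no spread between replicates, no test could be run and no p-value is given. Abundance is in RPM, reads scaled to the total of miRNA-matched reads of a library. Ratios are 180-day over 30-day RPM with exact 95% intervals for counting error, and they set 1 library against another without the variation between animals. The call "higher" needed a ratio of at least 2, the call "lower" one of at most 0.5, and both an interval that excluded 1.

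A miRNA finds its target mRNAs mainly by base pairing of its seed, bases 2 to 8 counted from the 5′ end, and then lowers their stability and translation. Members of a seed family can therefore share many targets even when they come from different hairpins. In mammals, miR-92a is made from the miR-17-92a cluster and from its relative on the X chromosome, which also carries miR-363, miR-25 is made from the miR-106b-25 cluster, and miR-92b and miR-32 have hairpins of their own. The miR-17-92a cluster is best known for promoting cell proliferation and survival.

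The mature sequences of the main arms show what joins the family and what tells its members apart. They are the entries matched in the deposited lists, written 5′ to 3′ as DNA with the seed in capitals. The miR-92b sequence is the entry named from zebrafish and the others are named from human.
miR-25: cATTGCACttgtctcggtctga
miR-92a: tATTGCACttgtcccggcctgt
miR-92b: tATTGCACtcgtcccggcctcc
miR-363: aATTGCACggtatccatctgta
miR-32: tATTGCACattactaagttgca
The seed was the same in all 5, and the remaining bases split them into a close and a distant group. Over 22 positions miR-92a was identical to miR-25 at 18 and miR-92b at 16, against 13 for miR-32 and 9 for miR-363. Counted from base 1 at the 5′ end, miR-92b differed from miR-92a by T10C, G21C and T22C, and miR-25 differed from miR-92a by T1C, C14T, C18T and T22A.

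The opposite arms carry other seeds, so the grouping by seed ends at the main arms.
miR-25*: aGGCGGAGacttgggcaattg
miR-92a*: aGGTTGGGatcggttgcaatgct
miR-92b*: aGGGACGGgacgcggtgcagtg
miR-363*: cGGGTGGAtcacgatgcaattt
miR-32*: cAATTTAGtgtgtgtgatattt
No 2 of these 5 seeds were the same.

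The libraries differed in depth and makeup. The 180-day library held 852209 miRNA-matched reads and the 30-day library 7525725, so that 3 reads stood for 3.52 RPM at 180 days and 0.399 RPM at 30 days. If the tag numbers are ranks over the whole library, which is an inference, miRNA reads took up to 7.08% of all reads at 180 days and up to 59.2% at 30 days. The ratios below therefore describe shares of the miRNA pool. Relative to RPM, median-of-ratios scaling shifted all log2 ratios by -0.23, TMM scaling by -0.32 and scaling to the lowest whole-library totals by -3.06. miR-202, a gonadal miRNA, was present at 110872 RPM at 180 days and 68481 RPM at 30 days.

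Read together, the family took a smaller share of the miRNA pool at 180 days. Its main arms held 2924 reads at 180 days, 0.343% of the pool (exact 95% interval 0.331 to 0.356), and 49422 reads at 30 days, 0.657% of the pool (0.651 to 0.663). The ratio was 0.522 (0.503 to 0.542), which did not reach the 2-fold rule, and without miR-25 it was 0.489 (0.460 to 0.520). Under other scalings the sum did reach it, at 0.445 with median-of-ratios and 0.417 with TMM. The single members did not all move in 1 direction.

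Of the 8 members with enough reads, miR-92a was called lower and miR-32 higher, and 6 were called neither. Among all 468 names tested, 11.3% were called lower and 29.5% higher, so 1 lower and 1 higher member of 8 is close to the background for lower and below it for higher. Median-of-ratios scaling called 3 members lower and 1 higher, against 16.7% and 25.2% of all names, and TMM scaling also called 3 lower and 1 higher, against 18.4% and 22.6%. Per read of the whole library at its lowest total 8 were lower and 0 higher, against 84.4% and 5.77% of all names. The median log2 ratio was -0.36 over the 8 members and 0.22 over all names tested. In RPM, intervals lay wholly below 1 for 4 members, miR-25, miR-25*, miR-92a and miR-92b, against 23.9% of all names tested. They lay wholly above 1 for 3 members, miR-92b*, miR-363 and miR-32, against 42.9% of all names tested. Under median-of-ratios and TMM scaling the interval of miR-363 included 1, and without tags of 1 read that of miR-92b* included 1. With perfect tags alone the intervals of miR-92b, at 0.914 (0.741 to 1.12), and of miR-25*, at 1.60 (0.930 to 2.62), included 1.

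**Figure D1:**
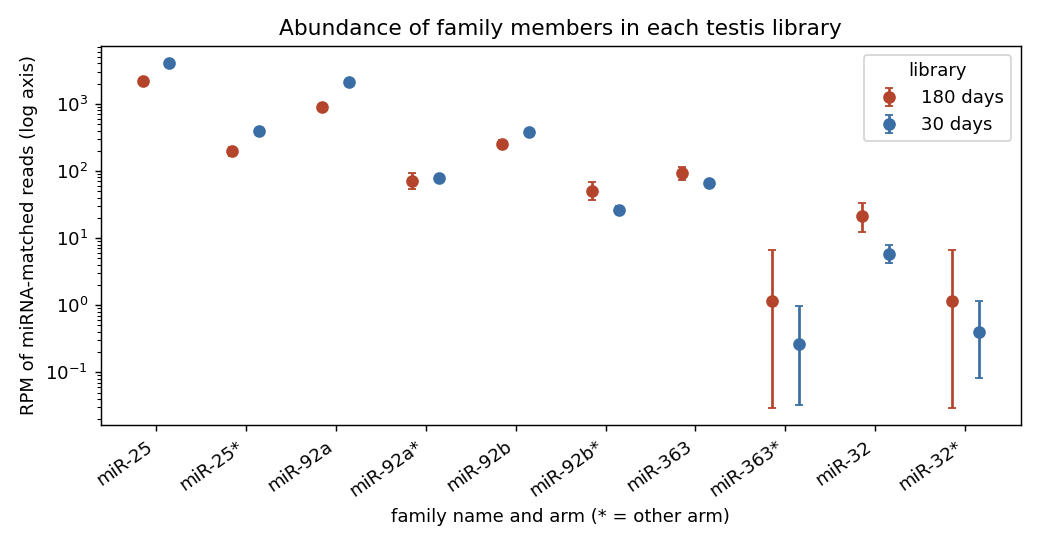
Level of each family name and arm in RPM of miRNA-matched reads on a log axis, with the 180-day library left of the 30-day library and exact 95% counting intervals as bars. miR-25 leads in both libraries at 2171 RPM (180 days) and 3992 RPM (30 days), and miR-363* and miR-32* rest on 1 to 3 reads.

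miR-25, the most abundant member, had 1850 reads or 2171 RPM at 180 days and 30040 reads or 3992 RPM at 30 days. Its ratio was 0.544 (0.519 to 0.570), short of the 2-fold rule. Among all names and arms it ranked 51st at 180 days and 34th at 30 days. Its opposite arm had a similar ratio in RPM. miR-25* had 169 reads or 198 RPM at 180 days and 2958 reads or 393 RPM at 30 days, a ratio of 0.505 (0.430 to 0.589). The intervals of the arms overlapped, and in RPM neither ratio reached the rule. Both arms were called lower under median-of-ratios scaling, at 0.464 for miR-25 and 0.430 for miR-25*, and under TMM scaling, at 0.434 and 0.403. miR-25* was also called lower without tags of 1 read, at 0.465. With perfect tags alone its ratio turned to 1.60 (0.930 to 2.62).

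miR-92a, known in other mammals as a brake on blood vessel growth, was the member called lower. It had 760 reads or 892 RPM at 180 days and 16003 reads or 2126 RPM at 30 days, a ratio of 0.419 (0.389 to 0.451) and a level 2.38-fold lower (2.22 to 2.57). The call was also made under median-of-ratios, TMM and whole-library scaling. Of 138 pooled miRNAs outside the family with at least 1000 reads, 6 had a ratio below that of miR-92a and 19 had one below that of miR-25.

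The opposite arm of miR-92a did not show this drop in RPM. miR-92a* had 61 reads or 71.6 RPM at 180 days and 595 reads or 79.1 RPM at 30 days, a ratio of 0.905 (0.684 to 1.18) that included 1. Under median-of-ratios scaling it was 0.772 (0.583 to 1.006), and under TMM scaling 0.723 (0.546 to 0.942), wholly below 1. The star arm made up 7.43% (5.73 to 9.44) of miR-92a hairpin reads at 180 days and 3.58% (3.31 to 3.88) at 30 days, and these intervals did not overlap. Such shares were not computed for hairpins outside the family. There, star arms had ratios above their main arm, as let-7b* at 2.50 against let-7b at 0.593. Others lay below it, as miR-143* at 1.11 against miR-143 at 2.76. The hairpin of miR-25 gave its star arm 8.37% (7.20 to 9.66) of its reads at 180 days and 8.96% (8.66 to 9.28) at 30 days, which overlapped. With perfect tags alone, which leave out the leading miR-25* tag, it was 1.79% at 180 days and 0.610% at 30 days.

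miR-92a can come from 2 hairpins whose main arms are identical, and only the opposite arm tells them apart. At 180 days 60 reads and at 30 days 592 reads of miR-92a* were listed under the human miR-92a-1* sequence shown above. An entry named miR-92a-1* from platypus, identical to the human sequence at 17 of 23 positions, had 1 read at 180 days and 2 at 30 days. A platypus entry named miR-92a-2*, identical to the human miR-92a-1* sequence at 22 of 23 positions, had 0 reads at 180 days and 1 at 30 days. The copy numbers in the platypus names thus did not follow likeness to the human miR-92a-1* sequence, and they are not used here to assign reads to a hairpin. The first of these platypus sequences is the more distant one.
platypus miR-92a-1*: gGGTGGGGatttgttgcattact
Nearly all star-arm reads were therefore listed under the human sequence in both libraries, and how many main-arm reads each hairpin gave cannot be told apart from these data.

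miR-92b, known in other mammals from neural progenitors, had a ratio nearer to 1. It had 217 reads or 255 RPM at 180 days and 2844 reads or 378 RPM at 30 days, a ratio of 0.674 (0.584 to 0.774). Its star arm had a ratio above 1, with 43 reads or 50.5 RPM at 180 days and 196 reads or 26.0 RPM at 30 days, a ratio of 1.94 (1.36 to 2.71) just under the rule. Per read of the whole library at its lowest total, the ratio of miR-92b* was 0.232. Without tags of 1 read the ratio of miR-92b* was 1.51 (0.975 to 2.27), with 1 inside the interval. With all tags kept, the star arm made up 16.5% of miR-92b hairpin reads at 180 days and 6.45% at 30 days, with intervals apart.

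Part of miR-92b* was a tag that is a weak match to the hairpin arm. The 20-base tag agggacgggagcggggcgcg held 10 reads at 180 days and 67 at 30 days, which was 23.3% and 34.2% of the reads named miR-92b*, and it had 2 mismatches and 2 unmatched bases. Without it, 33 reads at 180 days and 129 at 30 days remained, and the ratio was 2.26 (1.49 to 3.33), past the 2-fold rule. The star arm was then 13.2% (9.26 to 18.0) of miR-92b hairpin reads at 180 days and 4.34% (3.64 to 5.13) at 30 days, again with intervals apart. Leaving this tag out was a choice made after its values were seen.

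The 2 least abundant main arms had ratios above 1 in RPM, and below 1 when scaled to the lowest whole-library totals. miR-363, the partner of miR-92a in the X-linked cluster of mammals, had 79 reads or 92.7 RPM at 180 days and 491 reads or 65.2 RPM at 30 days. Its ratio of 1.42 (1.11 to 1.81) did not reach the rule. It was 1.21 (0.943 to 1.54) under median-of-ratios scaling and 1.13 (0.883 to 1.44) under TMM scaling, both with 1 inside the interval. miR-32, which lies within an intron of a protein-coding host gene in mammals, had 18 reads or 21.1 RPM at 180 days and 44 reads or 5.85 RPM at 30 days. Its ratio of 3.61 (1.96 to 6.38) was called higher, and was 0.432 per read of the whole library. It rests on 18 reads at 180 days, and the interval is the widest of the 5 main arms. Their star arms were near the limit of counting, with 1 read of miR-363* and 1 of miR-32* at 180 days, and 2 and 3 reads at 30 days.

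The order of the main arms was the same in both libraries, miR-25 over miR-92a, miR-92b, miR-363 and miR-32, and the counting intervals of neighbours in this order did not overlap in either library. With star arms included, miR-92b and miR-25* were neighbours whose intervals overlapped, at 255 and 198 RPM at 180 days and at 378 and 393 RPM at 30 days. The makeup within the family differed between the libraries more than the order did. Of main-arm reads, miR-92a held 26.0% (24.4 to 27.6) at 180 days and 32.4% (31.97 to 32.79) at 30 days. miR-363 held 2.70% (2.14 to 3.36) at 180 days and 0.993% (0.908 to 1.08) at 30 days. miR-25 was 2.43 times as abundant as miR-92a at 180 days (2.24 to 2.65) and 1.88 times at 30 days (1.84 to 1.91). These quotients are within a library and do not depend on its scaling.

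**Figure D2:**
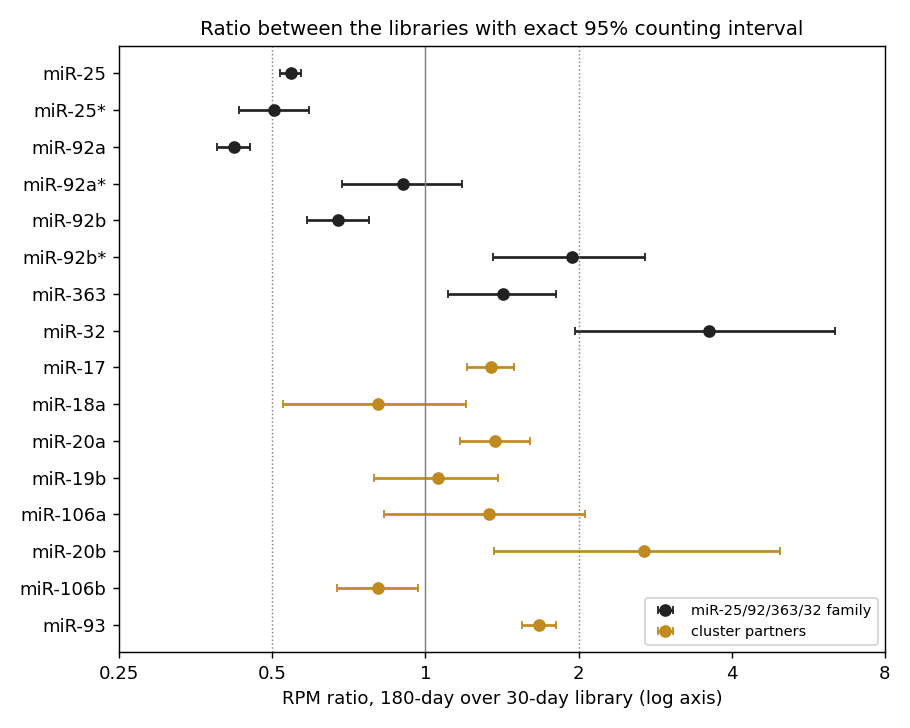
Ratio of RPM in the 180-day over the 30-day library on a log axis, with exact 95% counting intervals, for the 8 family members with enough reads (black) and 8 miRNAs of the same clusters (ochre); dotted lines mark 0.5 and 2. miR-92a lies at 0.419 and miR-25 at 0.544, while miR-17, miR-20a and miR-93, from the same clusters, lie between 1.34 and 1.68. Of the other partners, miR-106b, miR-18a and miR-19b lie between 0.807 and 1.06, miR-106a at 1.33 and miR-20b at 2.69.

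The family members were then set beside the miRNAs made from the same clusters. In the pig annotation of RefSeq (Sscrofa11.1), MIR92A-1 followed MIR17, MIR18A, MIR19A, MIR20A and MIR19B-1, and MIR92A-2 lay next to MIR363-1 and to MIR19B-2, MIR20B-1, MIR18B and MIR106A. MIR92B lay between the genes THBS3 and MUC1 with no miRNA gene among the 5 genes on either side, and MIR32 lay within TMEM245. MIR25 was looked for by this name in the same annotation and was not found. Its grouping with miR-106b and miR-93 is therefore taken from other mammals. Of 10 cluster partners, 8 had enough reads. miR-20b was called higher, none was called lower and 7 were called neither, against 29.5% higher and 11.3% lower of all names tested. The median log2 ratio of the 8 partners was 0.42, against 0.22 over all names tested.

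miR-17, which gives its cluster its name, had 390 reads or 458 RPM at 180 days and 2561 reads or 340 RPM at 30 days, a ratio of 1.34 (1.21 to 1.497). The other partners of miR-92a with enough reads were miR-20a at 1.37 (1.17 to 1.60), miR-19b at 1.06 (0.792 to 1.39) and miR-18a at 0.808 (0.524 to 1.20). None of these 4 intervals overlapped that of miR-92a, 0.389 to 0.451, and that statement does not depend on the scaling. It does depend on the grouping of names, since the miR-17 count joins reads named miR-17, miR-17-5p and miR-17a. By name these were at 1.95, 2.05 and 0.533, and the interval of miR-17a, 0.411 to 0.682, overlapped that of miR-92a. The miR-20a count likewise joins miR-20a at 1.71 and miR-20 at 0.685. In the miR-106b-25 cluster, miR-93 had 769 reads or 902 RPM at 180 days and 4054 reads or 539 RPM at 30 days, which gave a ratio of 1.68 (1.55 to 1.81). Its neighbour miR-106b had a ratio of 0.807 (0.670 to 0.965). Neither interval overlapped that of miR-25, 0.519 to 0.570. How many of all names also had intervals apart from those of miR-92a and miR-25 was not counted. Of 138 pooled miRNAs outside the family, 6 had a ratio below that of miR-92a and 19 one below that of miR-25. Ratios above both were thus usual and not particular to cluster partners. In the cluster with miR-363 the intervals did overlap: miR-106a at 1.33 (0.830 to 2.06) overlapped miR-363 at 1.42, and so did miR-20b at 2.69 (1.36 to 4.98), which rests on 14 reads at 180 days.

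The 2 remaining partners were too rare to place. miR-19a had 0 reads at 180 days, which allows up to 3.52 RPM, and 14 reads at 30 days, and miR-18b had 0 reads at 180 days and 4 at 30 days. Of the partners' star arms, 4 of 6 had enough reads and none was called, against 29.5% higher and 11.3% lower of all names tested. miR-17* was at 0.836 (0.626 to 1.10) and miR-106b* at 0.743 (0.652 to 0.843).

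Markers of cell types differed between the libraries as well. The sum of 3 miRNAs of meiotic and later germ cells, miR-34b, miR-34c and miR-449a, was 34835 RPM at 180 days and 11.2 RPM at 30 days, and all 3 were called higher. Red blood cell miRNAs had a sum of 3933 RPM at 180 days and 1742 RPM at 30 days, with miR-451 called higher of 3 and miR-144 and miR-486 at 0.853 and 0.697. White blood cell miRNAs had a sum of 194 RPM at 180 days and 168 RPM at 30 days, with 1 of 3 called higher. Striated muscle miRNAs had a sum of 6550 RPM at 180 days and 1432 RPM at 30 days, with 2 of 3 called higher, and miR-126 of endothelium was at 629 RPM at 180 days and 381 RPM at 30 days. No marker was at 0 in either library. Among all names tested, 29.5% were called higher and 11.3% lower. Their part in the family's ratios was not tested, and in whole tissue fewer cells of a type and less RNA per cell cannot be told apart.

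The miRNAs outside the family with the nearest log2 ratio were found among 138 pooled miRNAs with at least 1000 reads. With 1 library per age this likeness is that of a single number. Nearest to miR-25 were miR-214 at 0.535, miR-125a at 0.545 and miR-199a-3p at 0.552. Nearest to miR-92a were miR-221 at 0.438, let-7c at 0.476 and miR-27a at 0.493. Nearest to miR-92b were miR-125b* at 0.664, miR-339 at 0.668 and miR-1937b at 0.685. These ratios are for reads regrouped across names, which can add reads to a name or take them away. Grouped, miR-125b* held 81 reads at 180 days and 1077 at 30 days, against 109 and 1199 by name. By name alone miR-125b* was at 0.803, miR-1937b at 0.492 and miR-199a-3p at 0.652, so the list depends on the grouping.

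The seed itself was nearly private to the family in these lists. Tags with ATTGCAC at bases 2 to 8 held 2770 reads or 0.325% of miRNA reads at 180 days and 47397 reads or 0.630% at 30 days, and 99.9% of them in each library were named as family main arms. The name miR-92c, outside the rule, had 12 reads at 180 days and 92 at 30 days. miR-367, the remaining vertebrate miRNA with this seed and a marker of pluripotent cells, had 0 reads in both libraries, and the limit that this allows is 3.52 RPM for the 180-day and 0.399 RPM for the 30-day library.

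Because miR-92a and miR-92b differ by few bases, the exchange of reads through sequencing errors was measured at T10C. The leading miR-92a tag had 325 reads at 180 days and 8577 at 30 days, and the same tag with the base of miR-92b at position 10 had 0 reads at 180 days and 3 at 30 days. The leading miR-92b tag had 81 reads at 180 days and 767 at 30 days, and its copy with the miR-92a base had 0 at 180 days and 2 at 30 days. Among reads named miR-92b with the first 9 bases intact, the miR-92a base stood at position 10 in 4.95% at 180 days and 5.00% at 30 days. Among such reads named miR-92a, the miR-92b base stood there in 17 or 2.33% at 180 days and 236 or 1.53% at 30 days. Giving each tag to its nearest sequence left miR-92b at 224.5 reads at 180 days and 2889 at 30 days, close to 217 and 2844.

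The 5′ end, which sets the seed, was sharply defined in the 3 abundant members. Tags began at the first base of the sequences above in 97.4% of miR-25 reads at 180 days and 97.3% at 30 days, in 98.3% and 98.1% of miR-92a reads, and in 95.4% and 97.0% of miR-92b reads. miR-363 was looser, with 87.3% (78.0 to 93.8) at 180 days and 84.5% (81.0 to 87.6) at 30 days, and most of the rest began 1 base later, 12.7% at 180 days and 14.9% at 30 days. Such reads have the seed moved by 1 base, and their share in miR-363 did not differ between the libraries beyond counting error.

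The 3′ ends differed between members far more. The unchanged reference sequence was 56.4% of miR-25 reads at 180 days and 60.8% at 30 days, 42.8% and 53.6% of miR-92a reads, and 37.3% and 27.0% of miR-92b reads. miR-92b had 2 or 3 extra bases on 10.6% (6.84 to 15.5) of its reads at 180 days and on 20.3% (18.8 to 21.8) at 30 days, which did not overlap. For miR-363 the reference was 11.4% (5.34 to 20.5) at 180 days and 24.6% (20.9 to 28.7) at 30 days, with the intervals just apart. Its leading tag at 180 days carried an added A and its second an added T.
miR-363 with A: aATTGCACggtatccatctgtaa
miR-363 with T: aATTGCACggtatccatctgtat
The tag with A held 31.6% (21.6 to 43.1) of miR-363 reads at 180 days and 21.0% (17.5 to 24.9) at 30 days, and the tag with T held 22.8% (14.1 to 33.6) and 12.2% (9.46 to 15.4). Both pairs of intervals overlapped. Whether an added base is in the pig hairpin could not be read from the lists.

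The most read form of miR-25* was longer than the entry that names it. Its leading tag, aGGCGGAGacttgggcaattgct, ends 2 bases after the 21-base entry and held 47.3% of miR-25* reads at 180 days and 68.6% at 30 days. The entry itself held 11.2% at 180 days and 3.79% at 30 days. For miR-92a* the entry was the leading tag in both libraries, with 75.4% at 180 days and 78.0% at 30 days. miR-32 was short at its 3′ end at 30 days, where 63.6% of 44 reads were trimmed and the leading tag, tATTGCACattactaagttgc, lacked the last base. At 180 days the leading tag, tATTGCACattactaagttgcat, carried an added T instead and held 6 of 18 reads, and 50.0% of reads were 23 bases long, against 6.82% at 30 days.

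**Figure D3:**
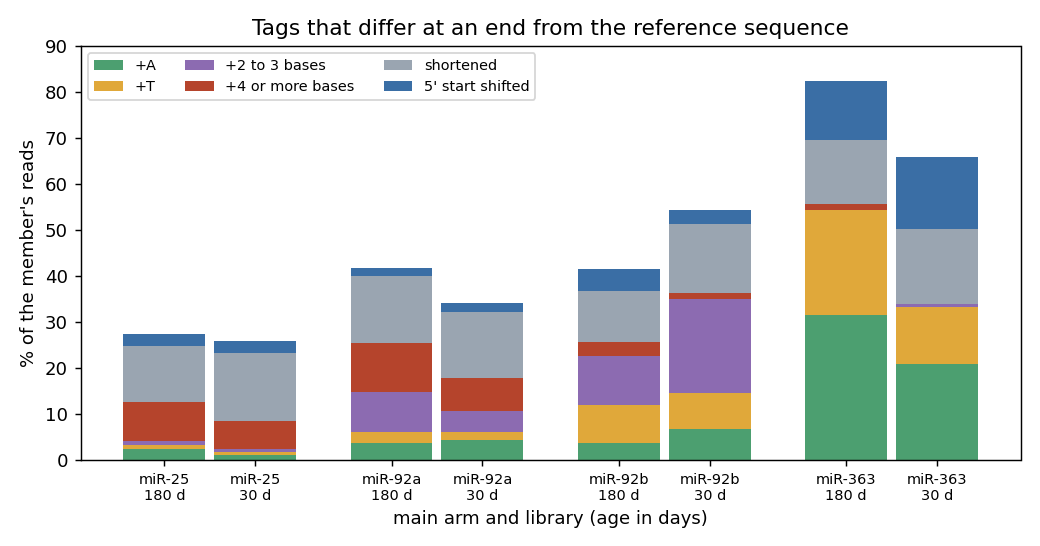
Share in percent of reads that differ from the reference sequence at an end, stacked by kind of end, for miR-25, miR-92a, miR-92b and miR-363. The 180-day library is left of the 30-day library. Not drawn are reference reads, single added C or G, 3′ ends changed after 15 or more matching bases, and other mismatches. Such changed 3′ ends held 11.4% of miR-25 reads at 180 days and 10.2% at 30 days. miR-25 and miR-92a carry additions of 4 or more bases, in 8.49% and 10.8% of reads at 180 days, while miR-363 carries added A and T.

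Long tags were a sizeable share of miR-25, miR-92a and miR-92b. Tags of 25 or more bases held 221 reads or 11.9% (10.5 to 13.5) of miR-25 at 180 days and 2529 reads or 8.42% (8.11 to 8.74) at 30 days. For miR-92a they held 103 reads or 13.6% (11.2 to 16.2) at 180 days and 1421 reads or 8.88% (8.44 to 9.33) at 30 days. Over all miRNA reads the share was 0.965% at 180 days and 0.455% at 30 days. Of names with at least 1000 reads, 7.58% at 180 days and 7.80% at 30 days had over 5% of long reads.

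Many of these long tags were the whole miRNA followed by a few bases ending in GAAC, which closed 62.9% of the long miR-25 reads at 180 days and 56.4% at 30 days, and 54.4% and 46.2% of the long miR-92a reads. The sequences are printed with the added bases in capitals, to show that the body is intact and the addition is the same on both miRNAs.
miR-25 with 5 bases: cattgcacttgtctcggtctgaCGAAC
miR-25 with 4 bases: cattgcacttgtctcggtctgaGAAC
miR-92a with 4 bases: tattgcacttgtcccggcctgtGAAC
miR-92a with 5 bases: tattgcacttgtcccggcctgtCGAAC
The first of these had 40 reads at 180 days and 494 at 30 days, the second 38 and 330, the third 22 and 288 and the fourth 18 and 172. Long tags ending in GAAC made up 7.51% of miR-25 reads at 180 days and 4.75% at 30 days, and 7.37% and 4.10% of miR-92a reads. The ending was found in long tags of both ages, with a larger share at 180 days.

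The related miR-92b and miR-363 had none of it. miR-92b had 0 such reads of 217 at 180 days, which allows a share of up to 1.38%, and 0 of 2844 at 30 days, which allows up to 0.105%. miR-363 had 0 of 79 at 180 days and 0 of 491 at 30 days, which allows up to 3.80% and 0.611%. The long tags of miR-92b, 24 reads or 11.1% at 180 days and 198 reads or 6.96% at 30 days, ended instead in bases such as those of tattgcactcgtcccggcctccATT, with 2 reads at 180 days and 46 at 30 days. The star arms of miR-25 and miR-92a also had 0 such reads, of 169 and 61 at 180 days and of 2958 and 595 at 30 days.

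Beyond the family the ending was uncommon. It was on 1201 long reads or 0.141% of all miRNA reads at 180 days and on 5991 or 0.0796% at 30 days, and its median share over names with at least 1000 reads was 0 in both libraries. The family's main arms held 16.2% of these reads at 180 days and 34.8% at 30 days. By share of its own reads miR-25 ranked 1st among such names at 180 days and 2nd at 30 days, behind miR-125a-5p at 11.7%. By number of reads, other names with many were miR-103, with 386 at 180 days and 1181 at 30 days, miR-140*, with 153 and 435, and miR-99a, with 73 and 567. What added these bases was not tested.

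**Figure D4:**
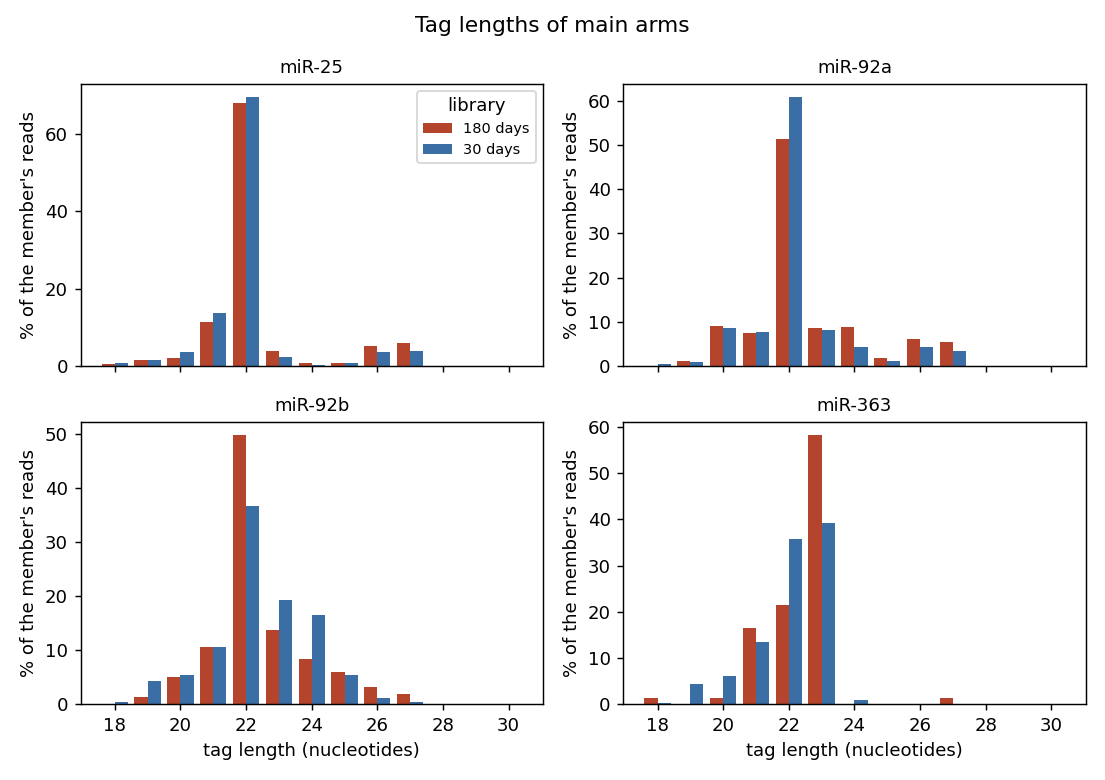
Tag lengths in nucleotides against the share in percent of a member's reads, for 4 main arms, with 180-day bars left of 30-day bars. miR-25 and miR-92a show a second rise at 26 to 27 nucleotides, 5.24% and 5.84% of miR-25 reads at 180 days, which miR-363 lacks.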

How the data were processed

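The deposited data are 2 lists, 1 per library, in which every line is a distinct tag with a miRNA name and a read count that the authors left unnormalized. Per the labels' protocols, small RNA of 18 to 30 nucleotides from pooled RNA of 3 boars per age received adapters and went through 15 PCR cycles before sequencing, with no molecular identifiers named, so intervals cover counting error only. The authors' lists also hold an alignment score, not used here, and the matched, mismatched and unmatched bases of each tag. The aligner, miRBase release and genome build were not given in the sources used here.

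Reads were summed per name and arm over species and scaled to RPM over all miRNA-matched reads, 852209 at 180 days and 7525725 at 30 days. Cluster partners, cell type markers and the miRNAs nearest in ratio were instead regrouped across names. This can add reads to a name or take them away, so their ratios can differ from those by name. Exact conditional and Clopper-Pearson 95% intervals were computed with Python 3.11.15, SciPy 1.17.1 and pandas 2.3.3. The ratio intervals and calls were tested on simulated counts that held counting error only, and the intervals of shares were not simulated. Where a library had 0 reads, 3 reads set the limit. Tags were aligned to their entries without gaps to find starts, ends and added bases. Named were all family names and arms, their cluster partners, miR-367, the 3 miRNAs nearest in ratio to each main arm with at least 1000 reads, and the 3 most read tags of a member. The alternatives were median-of-ratios and TMM scaling (edgeR 4.0.16 in R 4.3.3), the lowest whole-library totals, other tag filters, other minimums and a nearest-sequence naming of tags. Gene neighbours come from a RefSeq table, and the sequences from the deposited lists. The members and lists were chosen with earlier results of these data known.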

Additional observations from a re-analysis of the deposited data

How the results depend on the processing

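No paired analysis was possible because each age had 1 library, and for the same reason no replicate could be left out. Giving each tag to its nearest sequence, or dropping the minimum on reads, changed no call. The summed main arms had a ratio of 0.522 in RPM and of 0.445 under median-of-ratios scaling, 0.417 under TMM, 0.0625 per read of the whole library at its lowest totals and 0.501 without tags of 1 read. Under median-of-ratios scaling the ratios of miR-25, miR-92a and miR-92b were 0.464, 0.358 and 0.575, and under TMM they were 0.434, 0.335 and 0.538, with miR-25* at 0.403. Both scalings called 3 members lower. At the lowest whole-library totals the ratios were 0.0650 for miR-25, 0.0603 for miR-25*, 0.0502 for miR-92a, 0.108 for miR-92a*, 0.0806 for miR-92b, 0.232 for miR-92b* and 0.170 for miR-363, and miR-32 reversed to 0.432, so that 8 were lower and 0 higher. These shifts follow from the scaling itself. Without tags of 1 read 2 members were lower, and with a minimum of 100 reads 0 were higher, since miR-32 then fell out.

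Leaving out 1 weakly matching tag, an alternative chosen after seeing the data, gave miR-92b* a ratio of 2.26 and turned its call to higher. The planned removal of tags of 1 read gave miR-92b* a ratio of 1.51 (0.975 to 2.27), which included 1 and was called neither. With perfect tags alone the ratios were 1.60 for miR-25*, 0.369 for miR-92a and 0.914 (0.741 to 1.12) for miR-92b. miR-92b* then had too few reads for a value. Reference starts were then 100% for miR-25, miR-92a and miR-363 at both ages by construction, and 99.0% at 180 days and 98.9% at 30 days for miR-92b. Star-arm shares were 1.79% at 180 days and 0.610% at 30 days for miR-25, 10.9% and 4.63% for miR-92a, and 0.943% and 0.0921% for miR-92b. The miR-25* entry is shorter than its leading tag, and the miR-92b* entry itself held 1 read at each age, so perfect tags leave most of these arms out. Without tags of 1 read, reference starts were 98.3% for miR-92a at 30 days and 97.8% for miR-92b at both ages. Depth limits miR-32, miR-363 and the star arms at 180 days most, where 1 read is 1.17 RPM.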
